A study of Homo sapiens with 4 samples.

Results

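The 10 circadian clock genes described here are ARNTL, CLOCK, PER1, PER2, PER3, CRY1, CRY2, NR1D1, NR1D2 and DBP. Their rows were selected by symbol, and all 10 were found among the 26364 listed rows. They were measured by RNA-seq in BE(2)C, a MYCN-amplified human neuroblastoma cell line. Control cells (Ctrl, 2 samples, genotype labelled wild type) were transfected with a non-targeting siRNA, and the knockdown cells (MYCN KD, 2 samples) with an siRNA against MYCN. Both groups had the same medium and the same lipid transfection mix, to which more medium was added after 6 h. RNA was taken on the next day. The sample labels give 80 nM siRNA with an incubation of 6 h. The paper's methods give another value, stated as the final concentration after the added medium. All samples come from 1 established line, and the methods call replicates biological without saying whether they were separate cultures, so p-values may measure only the spread between these samples. Each sample was collected once, so neither the phase nor the amplitude of a rhythm was measured.

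The clock is a transcriptional feedback loop that runs in most cells of the body. ARNTL (also called BMAL1) and CLOCK form a basic helix-loop-helix dimer that binds E-box sequences and activates the PER and CRY genes, whose proteins return to block the dimer. The same dimer activates NR1D1 and NR1D2, which encode the nuclear receptors REV-ERB alpha and beta and repress ARNTL in a further loop, and DBP, a transcription factor that carries the rhythm to output genes. MYCN, with its partner MAX, binds the same E-box letters, CACGTG.

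Sequences at the start sites of 6 clock genes, before the start for 5 of them and after it for ARNTL, are shown because they hold letters that clock proteins are known to read. They come from RefSeq windows of 300 bases on GRCh38, 250 bases before and 50 after each annotated start, and the 10 genes had 15 such windows. The RNA-seq itself was mapped to hg19. The letters searched on both strands were the E-box CACGTG, the E'-box CACGTT, the D-box TTATGTAA (the site of DBP and its relatives), the cyclic AMP response element TGACGTCA and the RORE core TAGGTCA (the site of the REV-ERB and ROR receptors). None of these motifs contains another, and only these exact letters were searched, so variant forms of a motif are neither marked nor counted. Capitals mark the matches, on either strand, and each stretch is written 5′ to 3′ on the strand of the gene. PER1 (chr17:8152405-8152654, minus strand) and NR1D2 (chr3:23945871-23946120, plus strand) are the members with an E-box, and the NR1D2 stretch also holds a D-box. CRY1 (chr12:107093550-107093799, minus strand), PER2 (chr2:238288611-238288860, minus strand) and NR1D1 (chr17:40100590-40100839, minus strand) hold an E'-box. CLOCK and CRY2 also hold an E'-box before the start, and PER3 a D-box, but their sequences are not printed here. For ARNTL (chr11:13277808-13277837, plus strand) only 30 bases around its RORE core are given, all after the start.
PER1: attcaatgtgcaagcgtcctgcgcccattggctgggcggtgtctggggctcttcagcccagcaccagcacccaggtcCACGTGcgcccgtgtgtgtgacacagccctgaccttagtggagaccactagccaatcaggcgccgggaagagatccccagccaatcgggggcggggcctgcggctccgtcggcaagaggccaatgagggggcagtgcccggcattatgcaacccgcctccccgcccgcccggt
NR1D2: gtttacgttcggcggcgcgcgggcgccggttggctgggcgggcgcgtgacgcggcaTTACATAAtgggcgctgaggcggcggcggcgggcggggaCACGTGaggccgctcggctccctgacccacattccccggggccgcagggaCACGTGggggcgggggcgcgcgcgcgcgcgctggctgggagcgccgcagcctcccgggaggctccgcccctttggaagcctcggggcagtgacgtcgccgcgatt
CRY1: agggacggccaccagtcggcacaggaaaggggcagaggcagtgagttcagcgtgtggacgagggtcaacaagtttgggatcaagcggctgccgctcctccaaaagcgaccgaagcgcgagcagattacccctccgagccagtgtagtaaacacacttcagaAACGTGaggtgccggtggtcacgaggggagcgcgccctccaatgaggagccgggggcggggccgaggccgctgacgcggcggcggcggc
PER2: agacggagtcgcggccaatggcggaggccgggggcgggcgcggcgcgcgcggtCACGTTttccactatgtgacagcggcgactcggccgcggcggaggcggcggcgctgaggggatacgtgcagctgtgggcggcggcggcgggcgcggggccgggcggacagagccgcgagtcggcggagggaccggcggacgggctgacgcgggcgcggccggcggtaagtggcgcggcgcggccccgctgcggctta
NR1D1: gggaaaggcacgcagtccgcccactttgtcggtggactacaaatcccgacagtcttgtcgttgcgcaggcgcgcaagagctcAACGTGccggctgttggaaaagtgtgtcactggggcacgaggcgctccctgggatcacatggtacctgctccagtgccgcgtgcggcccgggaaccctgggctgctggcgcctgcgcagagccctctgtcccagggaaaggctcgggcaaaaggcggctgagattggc
ARNTL: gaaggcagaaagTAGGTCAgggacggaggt

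An E-box was found in 2 of the 15 windows, against 7.26% of the 35116 promoter windows of the same length. An E'-box was found in 5 of 15 windows (5.34% of all windows), a D-box in 2 (0.886%), a RORE core in 2 (1.85%), and the cyclic AMP response element in 0 (1.85%). The E-box of PER1 begins 173 bases before the start site, and those of NR1D2 begin 155 and 105 bases before it. The RORE core of ARNTL begins 30 bases after the start site of a RefSeq transcript. CRY2 holds both an E'-box and a RORE core, and the window of DBP holds none of these letters. A match is only a match of letters, and no binding was measured in these samples.

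**Figure D1:**
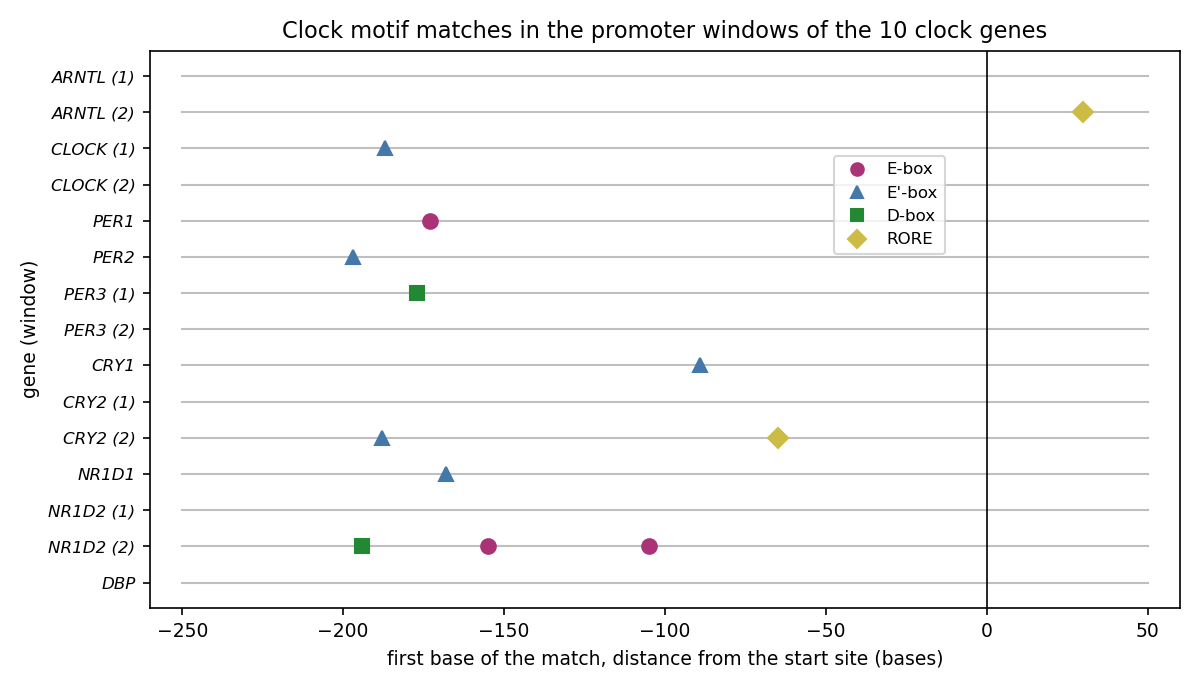
Matches to the clock motifs in the 15 promoter windows of the 10 genes, placed by the distance of their first base from the start site in bases (0 is the start site, negative values lie before it). Grey lines are the windows, numbered where a gene has several, and most matches lie between 197 and 65 bases before the start.

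The values are RPKM, reads scaled to the length of the gene and the depth of the library, which the authors made from read counts after removal of unwanted variation. The whole counts recovered from them are therefore adjusted counts, not sequenced reads, and the totals that scale them were 29055819 to 34142988 per sample. MYCN itself was at 1068 and 1073 RPKM (Ctrl) versus 720.2 and 718.0 RPKM (MYCN KD), log2 fold change -0.57 (limma adjusted p = 0.00361). All 8 neuroblastoma markers checked, among them DBH and TH, were listed between 23.8 and 865.2 RPKM. Of 8 markers of other cell types, COL1A2, PTPRC, PECAM1 and ALB were at or near 0, and DCN and LUM were listed at 4.58 to 9.33 RPKM. Of the 3 that passed the filter, 2 were called higher in MYCN KD, COL1A1 (2.41-fold, limma adjusted p = 0.00365) and DCN (1.69-fold, adjusted p = 0.0269), and EPCAM, below the filter, went from a mean of 0.141 to 0.408 RPKM. The RPKM of these 8 markers summed to 12.3 and 14.6 (Ctrl) versus 19.5 and 16.6 (MYCN KD), and their part in the results was not tested. In cell lysates of this kind, fewer cells of a type and less RNA per cell cannot be told apart. Deviations of the replicates from their group means ran in opposite directions in the 2 groups (r = -0.98 across 11411 genes), and the p-values take the 4 samples as independent.

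The clock genes were expressed at low to moderate levels. In Ctrl the order by mean RPKM, which is per length of gene, was PER1 (7.91 ± 1.15, SD, n = 2), DBP (7.40 ± 0.838), NR1D1 (7.33 ± 1.09), CRY2 (7.56 and 6.45 in its samples), CRY1 (6.20 ± 0.437), PER2 (3.88 ± 0.141), NR1D2 (3.19 ± 0.144), CLOCK (1.99 ± 0.475), ARNTL (1.15 ± 0.0680) and PER3 (0.818 ± 0.0345). Neighbours among the first 5 overlapped in their replicate values, while from CRY1 downward each gene lay above the next in both samples. Both genes of the activating dimer were below each repressor gene except PER3. In MYCN KD the order began with CRY2 (8.99 ± 0.971), whose values lay above those of DBP (6.45 ± 0.715), the next gene, and NR1D1 (4.42 ± 0.636) came beside CRY1 (4.36 ± 0.294).

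**Figure D2:**
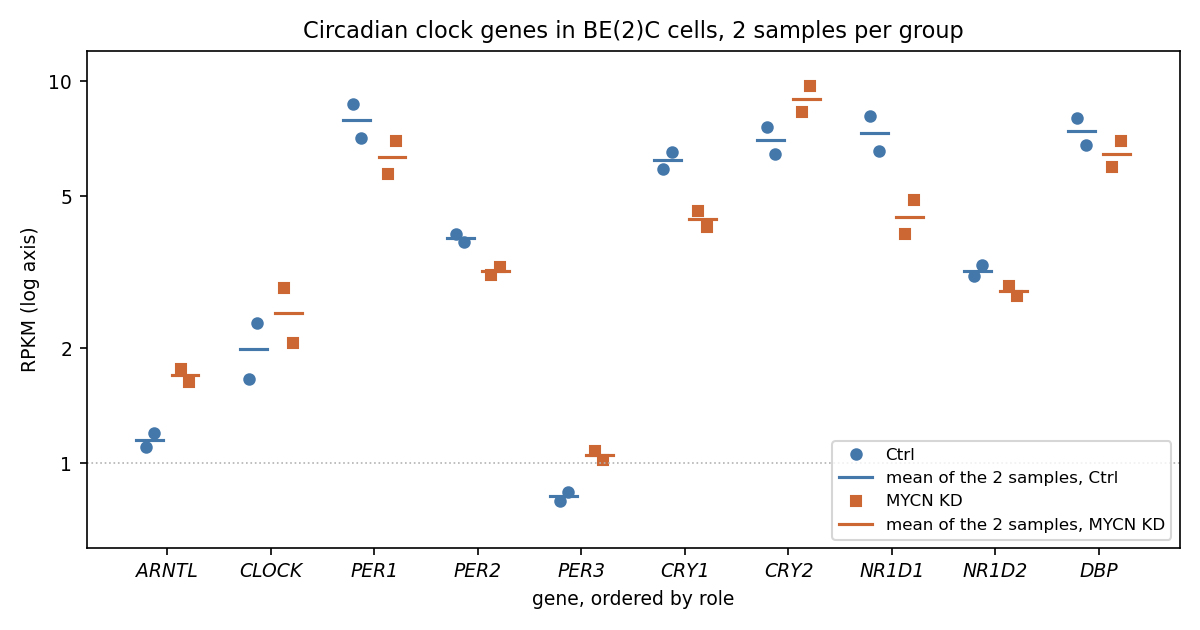
RPKM of the 10 clock genes on a log axis, with each of the 2 Ctrl samples (circles), the 2 MYCN KD samples (squares) and the group means (lines). The dotted line marks the expression filter of 1 RPKM, and the values of CLOCK and of DBP overlap between the groups.

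Both the activating and the repressing arm of the loop held genes that passed the test after MYCN knockdown. ARNTL was higher, and CRY1, PER2 and NR1D1 were lower, at an adjusted p under 0.05 from limma on log2(RPKM + 1). Of the 10 genes, 9 passed the filter of a mean RPKM of 1, with 1 called higher and 3 called lower. Across all 11411 tested genes 25.3% were called higher and 22.8% lower, 48.1% in either direction, and the 4 of 9 clock genes called are near this background. The median log2 fold change was -0.17 for the 9 clock genes and 0.03 for all tested genes. Both MYCN KD values lay above both Ctrl values for ARNTL, CRY2 and the untested PER3 (40.4% of all tested genes), and below them for PER1, PER2, CRY1, NR1D1 and NR1D2 (35.8% of all tested genes). Fits that leave out 1 sample, given below, draw the variance largely from all genes. Whether a gene passed in them mostly followed the size of its log2 fold change, so such calls are no separate check. An exact permutation test of a single gene cannot go below p = 0.33 with 2 samples against 2.

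**Figure D3:**
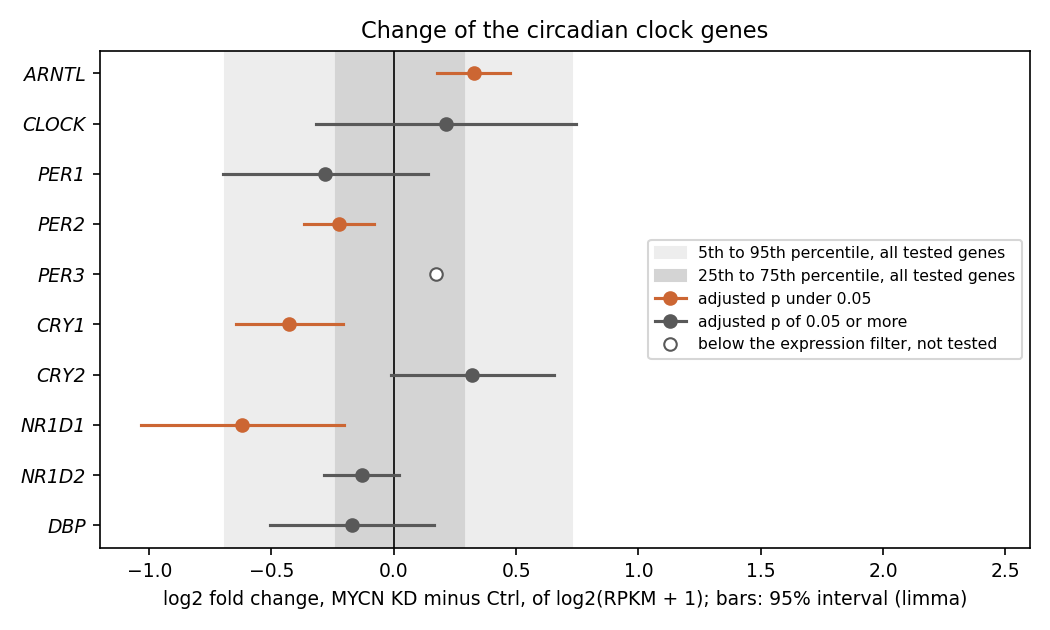
log2 fold change of each clock gene, MYCN KD minus Ctrl, with its 95% interval from limma. Orange marks an adjusted p under 0.05 and the open circle marks PER3, which was not tested. The grey bands hold the 5th to 95th and the 25th to 75th percentile of all tested genes, and the 10 points lie inside the wider band.

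ARNTL, at positions 13298199 to 13408813 of chromosome 11 (GRCh37, as for the other genes; plus strand), encodes the activator without which the clock stops. Its RPKM was 1.10 and 1.20 (Ctrl) versus 1.77 and 1.63 (MYCN KD), so both knockdown samples were above both controls. The mean rose 1.47-fold, with log2 fold change 0.33 (standard error 0.051, limma adjusted p = 0.0171). These values rest on adjusted counts of 110 and 112 (Ctrl) versus 150 and 147 (MYCN KD). A 95% Poisson interval on the adjusted count of the higher control reached 1.44 RPKM, and that of the lower knockdown sample began at 1.37 RPKM. Such intervals only approximate the counting error, since the counts were adjusted. The call was lost without Ctrl replicate 1 (log2 fold change 0.29, limma adjusted p = 0.0623) and without MYCN KD replicate 1 (0.29, adjusted p = 0.0645). With the replicate number as a block the adjusted p was 0.0913.

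CLOCK (chromosome 4, 56294070 to 56413076, minus strand) encodes the partner of ARNTL. It was at 1.66 and 2.33 RPKM (Ctrl) versus 2.87 and 2.07 RPKM (MYCN KD). One control sample lay above the lower knockdown sample, and the log2 fold change of 0.21 did not pass the test (95% interval -0.32 to 0.74, limma adjusted p = 0.386). Without Ctrl replicate 2 it was 0.37 (adjusted p = 0.0218) and without MYCN KD replicate 2 it was 0.38 (adjusted p = 0.0188), whereas without Ctrl replicate 1 it was 0.049 (adjusted p = 0.807) and without MYCN KD replicate 1 it was 0.044 (adjusted p = 0.829).

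Of the 2 cryptochrome genes, CRY1 passed the test and CRY2 did not, and their differences had opposite signs. CRY1 (chromosome 12, 107385142 to 107487327, minus strand) encodes a strong repressor of the dimer. It fell from 5.90 and 6.51 RPKM (Ctrl) to 4.57 and 4.15 RPKM (MYCN KD), log2 fold change -0.43 (standard error 0.074, limma adjusted p = 0.0209). Its groups did not overlap, and the call held under each of the 12 planned settings, with adjusted p from 0.00378 to 0.0426. CRY2 (chromosome 11, 45868669 to 45904799, plus strand) was at 7.56 and 6.45 RPKM (Ctrl) versus 8.30 and 9.68 RPKM (MYCN KD). Both knockdown samples were above both controls, but the log2 fold change of 0.32 did not pass (95% interval -0.01 to 0.65, adjusted p = 0.0946). It passed without Ctrl replicate 1 (0.42, adjusted p = 0.0129) and without MYCN KD replicate 1 (0.42, adjusted p = 0.0169).

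The ratio of CRY2 to CRY1 within a sample was 1.28 and 0.990 (Ctrl) versus 1.82 and 2.33 (MYCN KD). A scale factor shared by all genes of a sample cannot change this ratio, but the removal of unwanted variation before deposit could. This ratio was chosen after the values were seen. The summed RPKM of both genes overlapped between groups, with 13.5 and 13.0 (Ctrl) versus 12.9 and 13.8 (MYCN KD).

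The period genes encode the partners of the cryptochromes. PER1 (chromosome 17, 8043790 to 8059824, minus strand) was at 8.73 and 7.10 RPKM (Ctrl) versus 5.71 and 6.97 RPKM (MYCN KD). The groups were separate by a narrow margin, and the log2 fold change of -0.28 did not pass (95% interval -0.70 to 0.14, limma adjusted p = 0.190). It passed without Ctrl replicate 2 (-0.41, adjusted p = 0.0152) and without MYCN KD replicate 2 (-0.40, adjusted p = 0.0231), and was -0.15 without Ctrl replicate 1 (adjusted p = 0.448) or without MYCN KD replicate 1 (adjusted p = 0.438).

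PER2 (chromosome 2, 239152685 to 239198743, minus strand) fell from 3.98 and 3.78 RPKM (Ctrl) to 3.10 and 3.26 RPKM (MYCN KD). Both knockdown samples lay below both controls, and the difference on the log2 scale was -0.22 (SE 0.048, limma adjusted p = 0.0329). The call was lost when any 1 sample was left out, at -0.20 (adjusted p = 0.286) without Ctrl replicate 1, -0.25 (adjusted p = 0.153) without Ctrl replicate 2, -0.20 (adjusted p = 0.298) without MYCN KD replicate 1 and -0.25 (adjusted p = 0.165) without MYCN KD replicate 2. It was also lost with the replicate block (adjusted p = 0.322).

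PER3 (chromosome 1, 7844351 to 7905237, plus strand) lay below the filter with a mean of 0.933 RPKM. Its values were 0.793 and 0.842 RPKM (Ctrl) versus 1.08 and 1.02 RPKM (MYCN KD), from adjusted counts of 172 to 201 a sample. Both knockdown samples were above both controls, opposite to PER1 and PER2. The log2 fold change was 0.17, and in the fit without a filter its adjusted p was 0.0477 from limma. The summed RPKM of the 3 period genes was 13.5 and 11.7 (Ctrl) versus 9.88 and 11.2 (MYCN KD).

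The nuclear receptor NR1D1 showed the largest difference among the 10 genes. NR1D1 (chromosome 17, 38249046 to 38256842, minus strand) encodes REV-ERB alpha, which represses ARNTL. It fell from 8.10 and 6.56 RPKM (Ctrl) to 3.97 and 4.87 RPKM (MYCN KD), to 0.603 of the control mean. The difference on the log2 scale was -0.62 (SE 0.14, 95% interval -1.03 to -0.20, limma adjusted p = 0.0372). The adjusted counts were 767 and 582 (Ctrl) versus 320 and 418 (MYCN KD), and the ends of their Poisson intervals nearest to each other lay at 6.04 RPKM in Ctrl and 5.36 RPKM in MYCN KD. The call held without any single sample (log2 fold change -0.75 to -0.49) but not without a filter on low values, where 19908 genes were tested (adjusted p = 0.0609). Exons of NR1D1 share 473 bases with exons of THRA, the thyroid hormone receptor gene on the other strand. The strand setting of the counting is not given in the sources used here, so reads from these bases cannot be assigned to 1 of the genes. THRA was at 28.8 and 25.9 RPKM (Ctrl) versus 23.8 and 26.3 RPKM (MYCN KD) (log2 fold change -0.12, adjusted p = 0.293).

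NR1D2 (chromosome 3, 23986777 to 24022108, plus strand) encodes REV-ERB beta. It was at 3.09 and 3.29 RPKM (Ctrl) versus 2.91 and 2.74 RPKM (MYCN KD). Both knockdown samples lay below both controls, with a log2 fold change of -0.13 that did not pass (95% interval -0.28 to 0.02, limma adjusted p = 0.117) except under quantile normalization (-0.23, adjusted p = 0.0162). The promoter stretch of NR1D2 is the member sequence with 2 E-boxes, whereas that of NR1D1 holds an E'-box only.

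The ratio of ARNTL to NR1D1 within a sample, also chosen after the values were seen, was 0.136 and 0.183 (Ctrl) versus 0.445 and 0.334 (MYCN KD). The means were 0.160 ± 0.0329 and 0.390 ± 0.0787 (SD, n = 2), and the exact two-sided permutation p of 0.33 is the smallest this design allows.

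DBP (chromosome 19, 49133287 to 49140636, minus strand) is the output factor of the list. Its values overlapped between the groups, with 7.99 and 6.80 RPKM (Ctrl) versus 5.95 and 6.96 RPKM (MYCN KD). The log2 fold change was -0.17 (95% interval -0.51 to 0.16, limma adjusted p = 0.282) and passed under no planned setting. In the annotation, exons of DBP share 661 bases with SPHK2 on the other strand, which was at 16.6 and 13.7 RPKM (Ctrl) versus 16.4 and 19.7 RPKM (MYCN KD).

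Further genes of the clock pathway were taken from 4 lists with 46 genes, of which 36 passed the filter. Of these 36, 5 were called higher and 10 lower, against 25.3% and 22.8% of all tested genes, and their median log2 fold change was -0.01. Among 11 paralogs and accessory loop genes, 4 were tested and 0 were called by limma, 0 at an unadjusted p under 0.05 and 0 by limma voom. They were BHLHE40, NFIL3, CIART and TEF, a relative of DBP, whose log2 fold change was -0.29 (adjusted p = 0.110). ARNTL2 and NPAS2, the paralogs of ARNTL and CLOCK, were at most 0.139 and 0.0146 RPKM in any sample. RORA, an activator of ARNTL, was at most 0.621 RPKM.

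Of 15 genes for kinases, ubiquitin ligases and related modifiers of clock proteins, 12 were tested. Of these, 1 was called higher and 2 lower, against 25.3% and 22.8% of all tested genes. With the replicate block 2 were called higher and 2 lower, against 2077 and 1851 of all 11411 tested genes. USP2, a deubiquitinase, fell from 2.99 and 3.05 RPKM to 1.03 and 1.02 RPKM, log2 fold change -0.99 (limma adjusted p = 0.00359). FBXW7, a substrate receptor of a ubiquitin ligase that also acts on MYC proteins, fell by 0.55 on the log2 scale (adjusted p = 0.00728). BTRC, the ligase subunit that recognises phosphorylated PER proteins, rose from 4.11 and 4.72 RPKM to 7.07 and 6.19 RPKM (log2 fold change 0.49, adjusted p = 0.0268). CSNK1E and CSNK2B were listed at 0.389 RPKM or below in each sample, and their low values are not read as absence of these widely expressed kinases.

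All 13 cofactor genes were tested, and 7 were called lower, against 22.8% of all tested genes. Under the replicate block 4 of the 13 were called lower, against 1851 of all 11411 tested genes. TBL1X, part of the corepressor complex that REV-ERB proteins recruit, fell from 11.6 and 13.2 RPKM to 8.19 and 7.24 RPKM (log2 fold change -0.62, limma adjusted p = 0.0167). TIMELESS, which also works at replication forks, fell by 0.54 on the log2 scale (adjusted p = 0.0112), and CIPC, an inhibitor of CLOCK, fell by 0.37 (adjusted p = 0.0204). The call of CIPC was lost without Ctrl replicate 2 (-0.32, adjusted p = 0.0645), without MYCN KD replicate 2 (-0.33, adjusted p = 0.0719) and with the replicate block (adjusted p = 0.0813). The other genes called lower were NONO, SFPQ, WDR5 and CREBBP, with log2 fold changes from -0.36 to -0.25. In this list 0 genes were called higher by limma, 0 at an unadjusted p under 0.05, and 0 by limma voom. NCOR1 and HDAC3, the core of the same corepressor, did not pass (adjusted p = 0.145 and 0.315).

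Of 7 output genes, 4 were called higher and 1 lower, against 25.3% and 22.8% of all tested genes. Under the replicate block 2 were called higher and 1 lower, against 2077 and 1851 of all 11411 tested genes. CDKN1A, the cell cycle inhibitor p21 and also a p53 target, rose from 7.08 and 7.63 RPKM to 23.1 and 21.4 RPKM, log2 fold change 1.48 (limma adjusted p = 0.00359). TSC22D3, a gene that also answers to glucocorticoids, rose from 10.5 RPKM in both Ctrl samples to 18.8 and 18.7 RPKM. NAMPT, the rate-limiting enzyme of NAD salvage, fell from 7.05 and 8.22 RPKM to 4.64 and 4.01 RPKM (log2 fold change -0.70, adjusted p = 0.0161). WEE1, a mitotic kinase, was at 18.7 and 19.5 RPKM (Ctrl) versus 19.7 and 18.9 RPKM (MYCN KD), with overlapping values (adjusted p = 0.810).

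**Figure D4:**
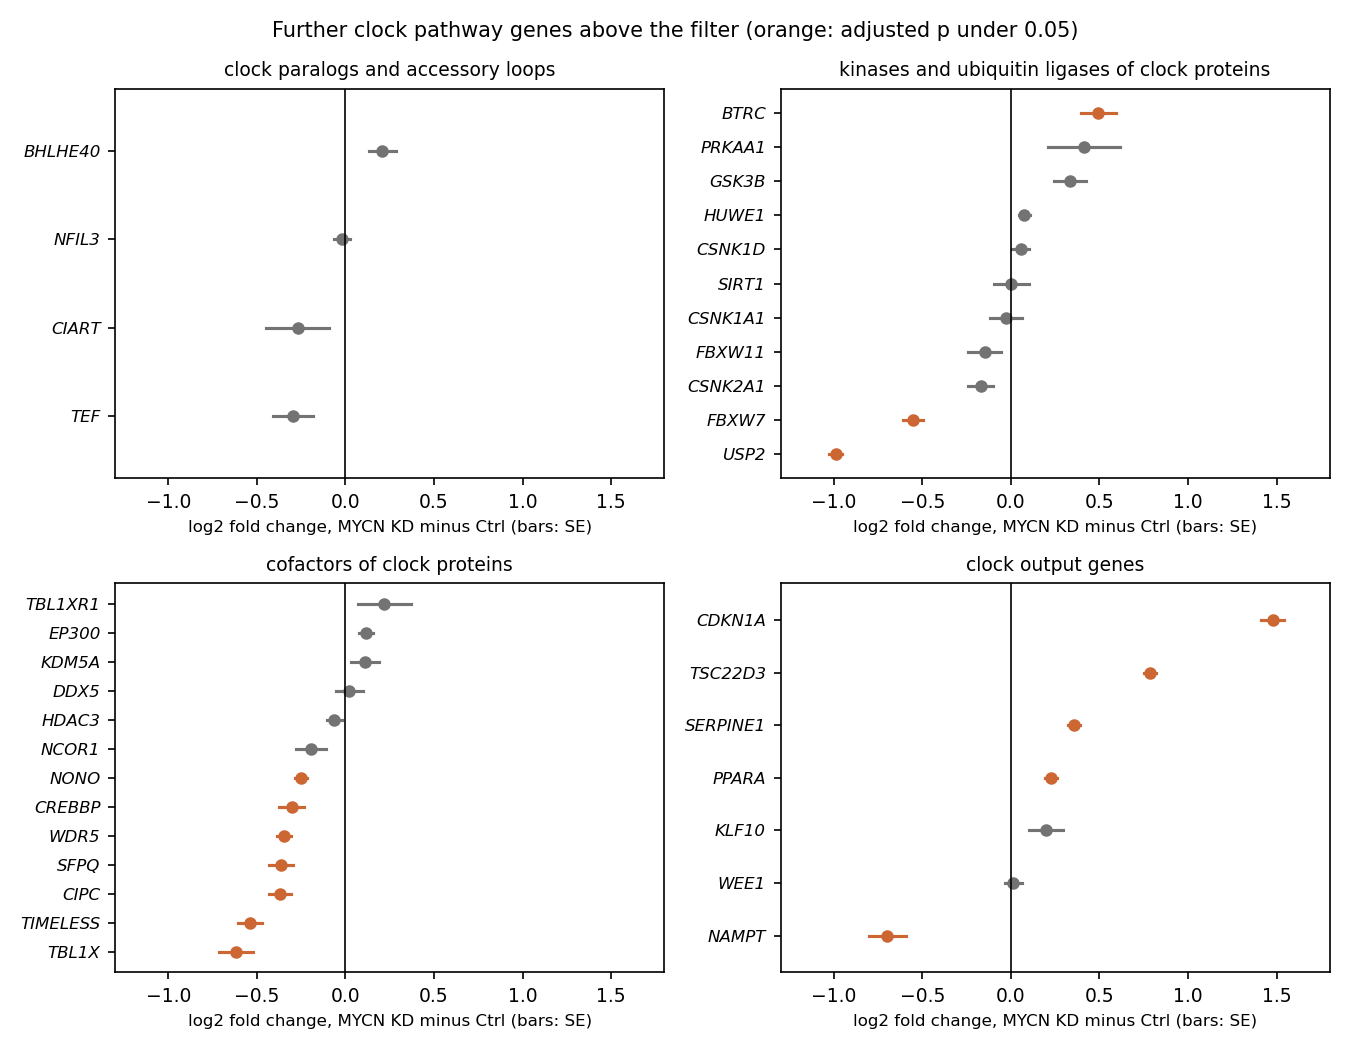
log2 fold change, MYCN KD minus Ctrl, of 35 of the 36 further clock pathway genes that passed the filter, in their 4 lists (1 gene is not drawn), with standard errors from limma. Orange marks an adjusted p under 0.05, which 48.1% of all tested genes reached in either direction. Of the 36 pathway genes, 5 were called higher and 10 lower.

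**Figure D5:**
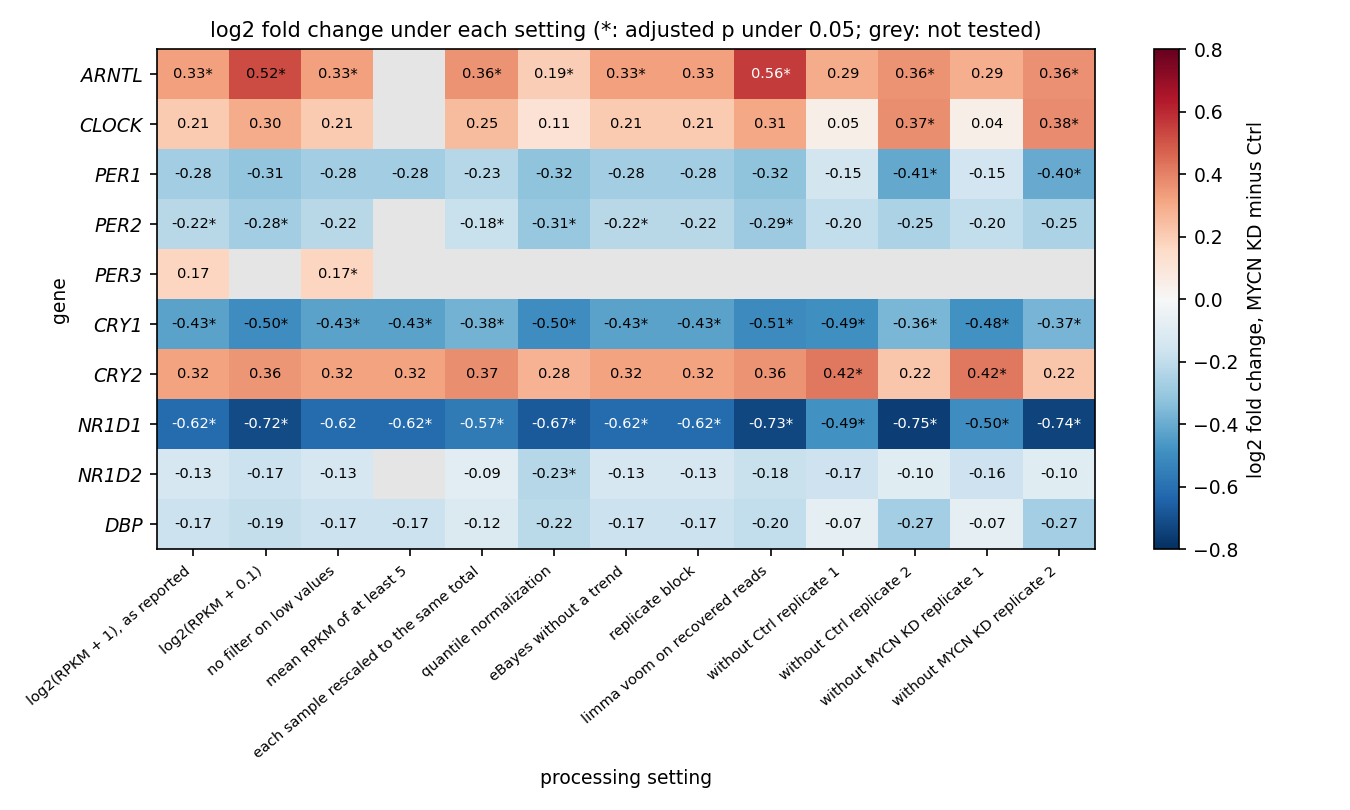
log2 fold change of each clock gene (rows, MYCN KD minus Ctrl) under each processing setting (columns), with a star for an adjusted p under 0.05 and grey where the gene was not tested. PER3 in the first column is a value without a test, and the recovered reads are the adjusted counts. Every value of a gene keeps its sign across the columns, though several of them cannot change it. CRY1 carries a star in each column that kept all 4 samples. In the columns without a sample, stars mostly follow the size of the log2 fold change.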

How the data were processed

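RNA-seq of 2 Ctrl and 2 MYCN KD samples of BE(2)C cells was used, grouped by the sample titles. The authors deposited 1 table of RPKM values per sample. They mapped reads to hg19 with HISAT2 2.1.0 and counted them on RefSeq genes with featureCounts. The authors used DESeq2 and then RUVSeq, which removes unwanted variation, before computing RPKM, and the RUVSeq variant is not given in the sources used here. Because the values were adjusted before deposit, the spread between replicates is that of adjusted values.

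The totals and whole counts behind the RPKM were recovered from small RNA genes of known length. All 19908 rows above 0 gave whole numbers (within 0.0001 of a count). These are counts after RUVSeq and not sequenced reads, so the sequencing depth itself is unknown. Each gene's length was the smallest that made its counts whole, which rows with few values above 0 meet easily. A factor shared by the length and all counts of a gene cannot be seen. Counts and their Poisson intervals could be off by such a factor. The test was limma 3.58.1 (R 4.3.3; trended eBayes, two-sided, no block) on log2(RPKM + 1). It covered the 11411 genes whose mean reached 1 RPKM, all of which entered the Benjamini-Hochberg adjustment, and the threshold was 0.05. On this scale the change of low genes is understated. Low counts limit PER3 and ARNTL most. Alternatives were another pseudocount, 2 filters, 2 scalings, eBayes without a trend, a replicate block, limma voom on the recovered adjusted counts, and each sample left out. The members and lists were chosen with earlier results of these data known. Named were the members, MYCN, ARNTL2, NPAS2, RORA and, by size of change, up to 3 called genes a list; other named list genes were added after their values were seen. Positions came from GENCODE 44 on GRCh37, promoters from RefSeq on GRCh38, with all 10 genes matched (ARNTL as BMAL1). Other steps ran in Python 3.11.15 with scipy 1.17.1, pandas 2.3.3 and numpy 2.4.6, and plots in matplotlib 3.10.9. Some genes of the lists are not reported here by name.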

Additional observations from a re-analysis of the deposited data

How the results depend on the processing

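The filters, eBayes without a trend and the replicate blocks cannot change a log2 fold change, and PER3 had no other fit. Leaving out a sample cannot reverse a gene whose groups do not overlap. Under the other scalings, the other pseudocount and limma voom, each tested clock gene kept its direction. CLOCK and DBP, whose groups overlap, also kept theirs with a sample left out. CRY1 stayed past the threshold throughout and DBP stayed outside it under each planned setting. Without a filter on low values, PER2 (-0.22, adjusted p = 0.0588 from limma) and NR1D1 (-0.62, adjusted p = 0.0609) lost the threshold. PER3 (0.17, limma adjusted p = 0.0477) passed it, so that 2 clock genes were called higher and 1 lower. That fit tested more genes, 19908, of which 3384 were called higher and 2594 lower. Quantile normalization brought NR1D2 past the threshold (-0.23). With a mean RPKM of at least 5, 5 clock genes remained to be tested, 0 were called higher by limma (0 at an unadjusted p under 0.05) and 2 lower. Of the further pathway genes 3 were called higher and 8 lower. Of all 7859 genes tested there, 1868 were called higher and 2106 lower. Leaving out each sample gave ARNTL 0.29 to 0.36, CLOCK 0.044 to 0.38, PER1 -0.41 to -0.15, PER2 -0.25 to -0.20 and CRY2 0.22 to 0.42. In these fits the lone sample of a group is assumed to vary like the other group, on 1 residual degree of freedom. The variance then comes largely from all genes, so calls gained, lost or kept there mostly follow the size of the log2 fold change. The replicate block also leaves 1 residual degree of freedom, with the same limit on its calls.

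Same-numbered samples deviated in opposite directions (r = -0.98, which with 2 samples a group is a single value for both numbers), and nothing in the labels pairs them. Under the replicate block, ARNTL (0.33) and PER2 (-0.22) lost the threshold, with 0 clock genes higher (1 at an unadjusted p under 0.05) and 2 lower. Of all 11411 genes tested with that block, 2077 were called higher and 1851 lower. Limma voom, fitted without a block, called 1 clock gene higher and 3 lower. With the crossed replicate block, added after seeing the data, 3 clock genes were called higher and 6 lower, of 9 tested. So were 17 and 18 of the 36 further pathway genes tested, and 5910 and 5262 of all 11411 tested genes. CLOCK (0.21), PER1 (-0.28), CRY2 (0.32), NR1D2 (-0.13) and DBP (-0.17) passed there, which is not particular to the clock genes. The cause of these changes was not tested.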

Other observations

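The replicate differences of the clock genes had opposite signs in the 2 groups for all 10 genes, as for 99.3% of the 11411 tested genes, so this is not particular to the clock genes. On the log2(RPKM + 1) scale, Ctrl replicate 1 minus Ctrl replicate 2 was 0.26 for PER1, 0.27 for NR1D1, 0.20 for DBP and 0.20 for CRY2, and MYCN KD replicate 1 minus replicate 2 was -0.25, -0.24, -0.20 and -0.20. For CLOCK the same differences were -0.33 and 0.34, and for CRY1 they were -0.12 and 0.11. Of the 10 genes, 5 had the higher value in Ctrl replicate 1. TEF (0.20 and -0.19) and CIART (0.35 and -0.30), 2 accessory clock genes, had the signs of PER1, NR1D1 and DBP. ARNTL (-0.06 and 0.08), NR1D2 (-0.07 and 0.06) and PER3 (-0.04 and 0.04) had the signs of CLOCK and CRY1. So did HLF, an accessory gene below the filter. These genes were singled out after their values were seen, and no test was made.

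HLF, a relative of DBP, lay below the expression filter and was singled out after its values were seen. It was at 0.675 and 0.877 RPKM in Ctrl and at 0.504 and 0.393 RPKM in MYCN KD, and did not pass in the fit without a filter (limma adjusted p = 0.0821).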
